A study of Mus musculus with 23 samples.

Results

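Glucagon (Gcg) and 7 genes of the machinery that cuts and finishes peptide hormones were followed across 4 groups of mouse libraries: Pcsk2, Scg5, Pcsk1, Pcsk1n, Cpe, Pam and Furin. They were chosen by symbol, and all 8 were listed in both deposited tables, as 8 of 28096 genes in the alpha cell table and 8 of 22412 in the tissue table. The study compared pancreatic alpha cells and tumors of mice lacking the glucagon receptor, GCGR. Alpha cells had been sorted by flow cytometry from islets of tamoxifen-treated mice that were heterozygous for GCGR (n = 3) or homozygous knockout (n = 5). The protocol gives tamoxifen at 200 mg/kg for 5 days and islets taken 14 to 21 days after it. That text accompanies every sample, whereas tumors (n = 7) and non-tumor pancreatic tissue (n = 8), both from homozygous knockouts, are labelled as given no treatment. No wild-type group was analysed here, and the non-tumor tissue carries the knockout as well. The age of the mice, the floxed or null nature of the allele and the promoter driving any tamoxifen-dependent recombinase were not stated by any source used here. Labels do not tie libraries to animals, so every p-value refers to spread among libraries, which may be technical.

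Glucagon is cut out of a larger precursor, proglucagon, inside the secretory granules. Prohormone convertase 2, the product of Pcsk2, makes glucagon from it in alpha cells, whereas prohormone convertase 1/3, the product of Pcsk1, makes the glucagon-like peptides in intestinal L cells and cuts proinsulin in beta cells. Each convertase has a small granule partner: 7B2, encoded by Scg5, is needed for the maturation of convertase 2, and proSAAS, encoded by Pcsk1n, can inhibit convertase 1/3. Carboxypeptidase E (Cpe) then trims basic residues from the cut ends, the copper enzyme encoded by Pam amidates peptides such as amidated glucagon-like peptide 1, and Furin cuts many precursors in the trans-Golgi of most cell types.

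The promoter sequences of the hormone gene and of both convertases are shown because the transcript levels of these 3 genes set the groups apart in different ways in the results that follow. Sequences came from RefSeq on GRCm38.p6, where 7 of the 8 genes matched, and each covers the 250 bases before the annotated start site, written in the direction of transcription. Capitals mark letters matching TATAAA (the TATA box), TGACGT (the core of the cyclic AMP response element), TAAT (a core bound by many homeodomain proteins) or GGGCGG (the GC box), each searched on both strands. Of 32851 promoter windows of the same length, 12.4% held TATAAA, 6.47% TGACGT, 54.9% TAAT and 32.7% GGGCGG.
Gcg, chr2:62483654-62483903, minus strand: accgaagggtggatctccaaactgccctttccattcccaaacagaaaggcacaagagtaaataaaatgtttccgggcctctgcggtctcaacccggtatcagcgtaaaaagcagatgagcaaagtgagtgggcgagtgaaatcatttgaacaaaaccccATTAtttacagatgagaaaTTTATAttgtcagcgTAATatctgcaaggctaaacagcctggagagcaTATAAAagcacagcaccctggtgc
Pcsk2, chr2:143545883-143546132, plus strand: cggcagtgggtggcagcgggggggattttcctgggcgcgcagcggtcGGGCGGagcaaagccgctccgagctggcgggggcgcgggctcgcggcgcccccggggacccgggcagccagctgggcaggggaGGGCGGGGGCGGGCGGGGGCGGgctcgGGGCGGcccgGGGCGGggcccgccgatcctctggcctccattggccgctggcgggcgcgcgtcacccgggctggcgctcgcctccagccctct
Pcsk1, chr13:75089607-75089856, plus strand: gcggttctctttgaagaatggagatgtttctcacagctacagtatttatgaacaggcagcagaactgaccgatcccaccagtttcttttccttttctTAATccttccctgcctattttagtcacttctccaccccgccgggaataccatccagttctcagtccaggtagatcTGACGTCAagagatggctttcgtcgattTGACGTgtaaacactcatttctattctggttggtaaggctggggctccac
The Gcg window held TATAAA with its first base 24 bases before the start site, a second copy on the other strand at 72 bases, and TAAT on either strand. The Pcsk2 window held 7 copies of GGGCGG, some of them touching or overlapping, and no match to the other 3 motifs. In the Pcsk1 window TGACGT began 78 and 50 bases before the start site, the first copy overlapping its reverse complement ACGTCA. G and C made up 44.8% of the Gcg window, 46.8% of the Pcsk1 window and 82.4% of the Pcsk2 window, against a median of 52.4% over all windows. A match describes letters only.

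Values were deposited in 1 table for the alpha cells and 1 for the tissue, with no unit named. They were read here as RPKM, reads scaled to gene length and library size. The tables were normalised separately, so levels are set side by side across them without a test. Read depth is unknown for the alpha cells. Whole reads could be recovered for the 8 genes in the tissue table and are given below as the least number behind a value. The 8 genes together took 61.6 to 69.8% of the summed RPKM of each alpha cell library, 28.5 to 48.1% of each tumor and 0.00744 to 0.0901% of each non-tumor library. Under 15000 genes were above 0 in libraries 1 and 2 of either genotype, and more in the remaining 4 alpha cell libraries. Heterozygous library 3 alone had Xist, the transcript of the inactive X chromosome, at 103.7 RPKM, where the other alpha cell libraries had at most 0.161. Labels were checked against markers. Gcg ranked first of all genes in every alpha cell library and every tumor, and summed alpha cell markers came to 63.2 to 71.9% of alpha cell libraries and 30.1 to 52.7% of tumors. Gcg is itself among these markers and carried most of the sum, at 61.3 to 69.5% of alpha cell libraries and 27.8 to 46.8% of tumors. Acinar enzymes took 56.8 to 64.5% of non-tumor libraries and 0.819 to 21.0% of tumors, so the non-tumor tissue was mostly exocrine in its RNA.

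**Figure D1:**
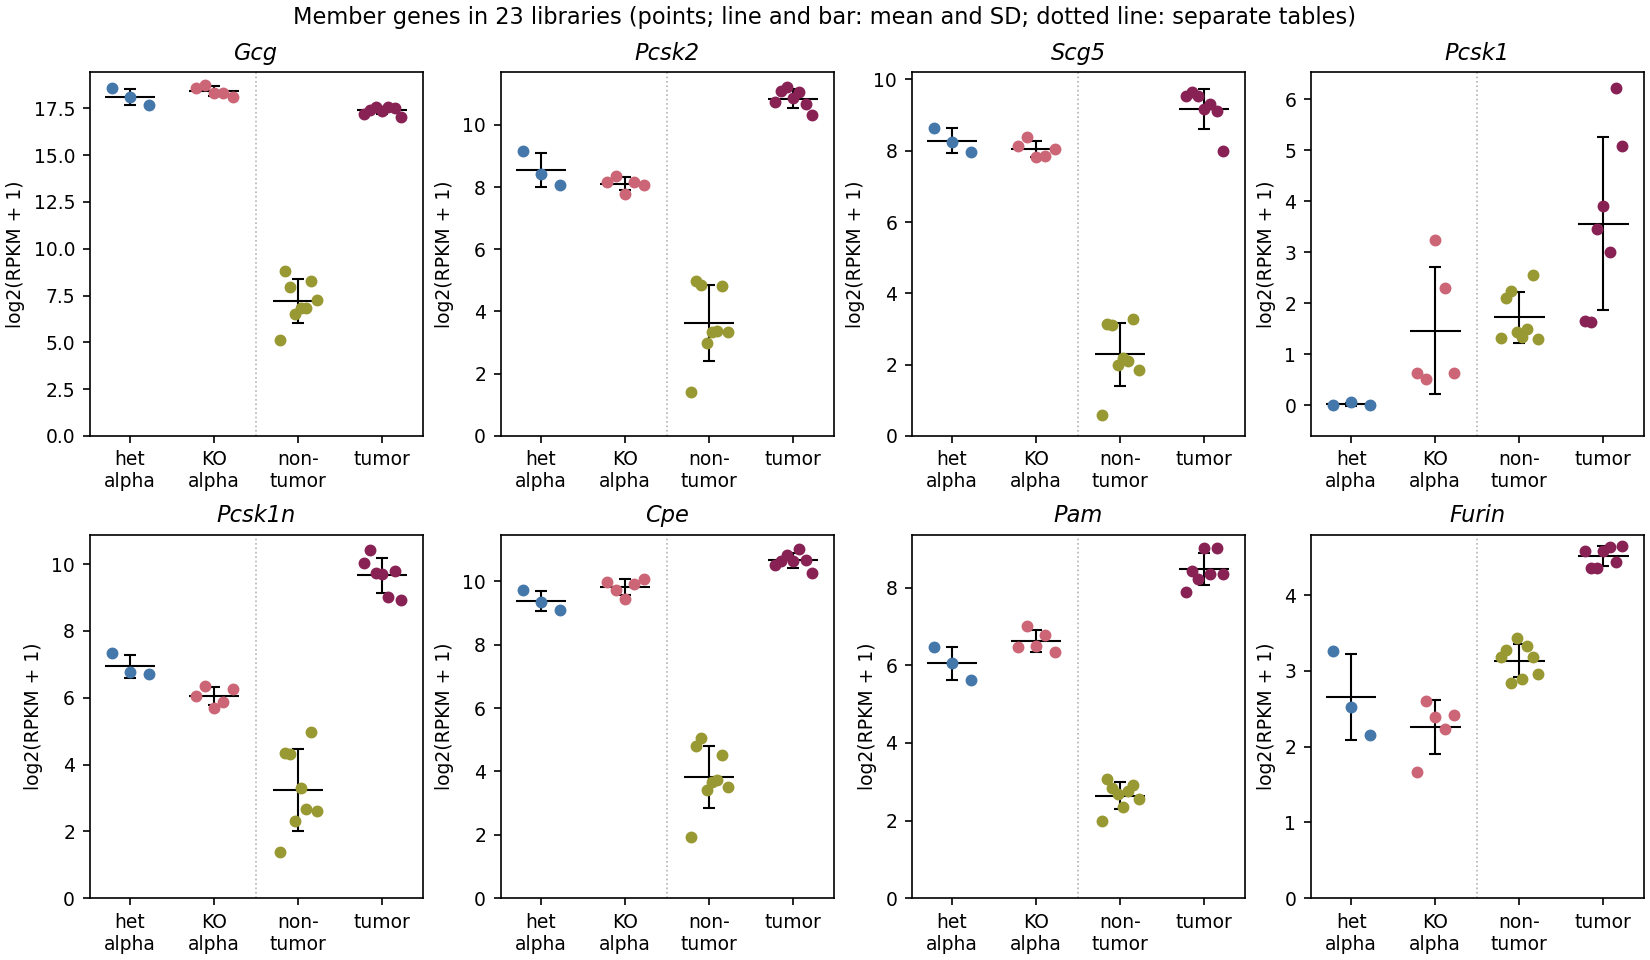
Each panel plots log2(RPKM + 1) of 1 gene in all 23 libraries (points), with the mean and SD of each group; the dotted line separates tables that were normalised separately. Tumors lie above all non-tumor libraries for 7 genes, where groups did not overlap, in either direction, for 78.6% of all tested genes. They overlap for Pcsk1, which was listed at 0 in 2 of 3 heterozygous alpha cell libraries.

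In alpha cells the comparison asks which transcripts of the hormone and its processing machinery differ with the receptor genotype. None of the 7 genes that could be tested passed the threshold of an adjusted p of 0.05 in limma, where 0.261% of all 10718 tested genes did (17 higher and 11 lower) and 0.308% once libraries were centred on their median gene. With libraries rescaled to an equal sum outside Gcg and the acinar markers, 17 genes were higher and 22 lower, again with none of the 7 among them. The processing genes were split in direction. Pcsk2, Scg5, Pcsk1n and Furin were lower on average in the knockout, and Gcg, Cpe and Pam were higher, with log2 fold changes between -0.89 and 0.57. All 7 directions held under that rescaling, where Gcg came to 0.13 and Cpe to 0.26, and under centring, which added 0.05 to each log2 fold change. Groups did not overlap for Pcsk1n, lower in the knockout, and for the low and untested Pcsk1, higher in the knockout, where 7.45% of all tested genes did not overlap. Pcsk2 relative to Gcg was also lower in every knockout library than in any heterozygous one, and the share of all genes with such a ratio was not computed.

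Gcg (chromosome 2, 62474530 to 62483650, minus strand, GRCm38) read 387094, 278666 and 209220 RPKM in heterozygous libraries 1 to 3. In knockout libraries 1 to 5 it read 400008, 439382, 322637, 325987 and 284366 RPKM. The ranges overlapped, with heterozygous library 3 the lowest of all and knockout library 2 the highest. The log2 fold change of 0.31 (SE 0.23) did not pass the test (limma adjusted p = 0.663). It was 0.54 without heterozygous library 1 and 0.09 without heterozygous library 3.

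Pcsk2 (chromosome 2, 143546156 to 143816285, plus strand) read 566, 343 and 265 RPKM in heterozygous cells and 284, 326, 221, 288 and 264 RPKM in knockout cells. The value above all others was that of heterozygous library 1, and the remaining libraries overlapped. The fold change, -0.44 on the log2 scale (SE 0.27), did not pass (limma adjusted p = 0.576), and was -0.14 without heterozygous library 1 and -0.68 without heterozygous library 3. Scg5 (chromosome 2, 113776362 to 113829121, minus strand), the 7B2 gene, read 400.3, 301 and 249.9 RPKM in heterozygous and 281, 331, 224, 232 and 262 RPKM in knockout cells. Its groups overlapped too, with a log2 fold change of -0.24 (SE 0.24, limma adjusted p = 0.749) that was -0.06 without heterozygous library 1 and -0.40 without heterozygous library 3. Annotated antisense transcripts, Pcsk2os1 and Pcsk2os2, overlap Pcsk2, and their reads cannot be told from its own where strand is not stated to have been counted.

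Set against the hormone transcript of the same library, Pcsk2 was lower in knockout cells. It came to 0.146%, 0.123% and 0.127% of Gcg RPKM in heterozygous libraries 1 to 3 and to 0.0710%, 0.0742%, 0.0684%, 0.0883% and 0.0930% in knockout libraries 1 to 5. All 5 knockout libraries lay below all 3 heterozygous ones. The log2 ratio differed by -0.75 between group means of -9.57 ± 0.13 (SD, n = 3) and -10.32 ± 0.20 (SD, n = 5). The two-sided exact permutation p was 0.0179, the smallest that 3 against 5 libraries can give, and 0.0306 after adjustment over the 12 ratio tests run. A ratio within a library shows unequal change of the pair and not which of them changed. Gcg itself had a log2 fold change of 0.31, against a median of 0.005 over all tested genes. A lower ratio to Gcg need therefore not be particular to Pcsk2. The share of all genes with such a ratio in alpha cells was not computed. Summed beta cell markers, from cells that also make Pcsk2, were 463 to 1990 RPKM in heterozygous and 249 to 733 RPKM in knockout libraries, and their part in the ratio was not tested. Scg5 kept step with Pcsk2, at 70.8% to 94.3% of its RPKM in heterozygous and 80.8% to 101% in knockout cells, a difference in log2 ratio of 0.20 (exact permutation p = 0.196, adjusted 0.295) that reached an exact p of 0.0286 without knockout library 4. Cpe lay between 0.220 and 0.262% of Gcg in heterozygous cells and between 0.195 and 0.383% in knockout cells, with overlapping ranges (difference 0.13, exact permutation p = 0.661).

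Pcsk1n (chromosome X, 7919822 to 7924410, plus strand), the proSAAS gene, read 161, 109 and 103 RPKM in heterozygous cells. It read 65.1, 80.8, 50.3, 58.1 and 75.3 RPKM in knockout cells, all below the lowest heterozygous library. Of all tested genes, 3.6% were lower in the knockout without overlap. On the log2 scale the difference was -0.89 (SE 0.28), which failed the correction over all genes (limma adjusted p = 0.283). For this gene alone the exact permutation p was 0.0179, the smallest possible here. Its difference was -0.86 among libraries with under 15000 genes above 0 (2 against 2) and -0.76 among those with more (1 against 3). Without heterozygous library 3, which alone had Xist, it was -1.01 (limma adjusted p = 0.184). The 3' end of Pcsk1n overlaps Eras on the opposite strand.

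Pcsk1 (chromosome 13, 75089826 to 75134861, plus strand) was nearly absent from heterozygous cells. It was listed at 0 RPKM in heterozygous libraries 1 and 3 and at 0.0400 in library 2, whereas knockout libraries 1 to 5 read 0.542, 0.427, 8.47, 3.94 and 0.551 RPKM. Every knockout library was above every heterozygous one, with knockout libraries 3 and 4 far above the other 3; of all tested genes, 3.85% were higher in the knockout without overlap. The gene fell under the filter of 1 RPKM in at least 3 libraries and was not tested in the main fit. An exact permutation test on log2(RPKM + 1) gave p = 0.125, and limma without the filter gave an adjusted p of 0.715. Marker lists for other cell types were set beside it. Summed gut endocrine markers were 2778 to 6203 RPKM in knockout and 1460 to 2676 RPKM in heterozygous libraries, without overlap. Of the 4 markers Pyy carried the sum, and Gip and Insl5 were at 0 in all 8 libraries. The sum therefore cannot be assigned to gut endocrine cells. Summed ductal markers did not overlap either, at 41.1 to 88.7 RPKM in knockout and 9.21 to 26.6 RPKM in heterozygous libraries, with Krt19 and Sox9 at 0 in all 8 libraries. Summed beta cell markers overlapped, at 249 to 733 RPKM and 463 to 1990 RPKM. Within the knockout these sums did not follow Pcsk1 alike. Libraries 3 and 4 had the lowest ductal sums, at 50.5 and 41.1 RPKM, and library 5 had the highest gut endocrine sum. The beta cell sum was highest in library 4, at 733 RPKM. The part of any other cells in Pcsk1 was not tested. In knockout libraries 3 and 4 Pcsk1 still stood at only 3.84% and 1.37% of Pcsk2.

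Cpe (chromosome 8, 64592542 to 64693054, minus strand) was the most abundant processing transcript in every alpha cell library. It read 849.7, 653 and 548 RPKM in heterozygous and 1021, 855, 689.8, 964 and 1088 RPKM in knockout cells. Heterozygous library 1 lay within the knockout range, and the log2 fold change of 0.44 (SE 0.23) did not pass (limma adjusted p = 0.518). Pam (chromosome 1, 97795114 to 98095646, minus strand) read 87.9, 65.6 and 48.5 RPKM in heterozygous and 87.9, 129, 88.8, 109 and 79.6 RPKM in knockout cells. The groups overlapped through heterozygous library 1 (log2 fold change 0.57, SE 0.28, limma adjusted p = 0.494), and the change was 0.35 without heterozygous library 3. Furin (chromosome 7, 80388585 to 80405436, minus strand) was low, at 8.63, 4.75 and 3.46 RPKM in heterozygous and 2.17, 5.04, 4.23, 3.68 and 4.36 RPKM in knockout cells. Its fold change of -0.39 on the log2 scale (SE 0.45) did not pass (limma adjusted p = 0.786), and the sign turned between libraries with under 15000 genes above 0 (-0.77) and with more (0.19). It was -0.08 without heterozygous library 1 and -0.64 without heterozygous library 3. Pam and Furin overlap other annotated genes, so part of their reads could belong to these.

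The order of levels was alike in both alpha cell groups. Mean RPKM ran from Gcg through Cpe, Pcsk2, Scg5, Pcsk1n, Pam and Furin to Pcsk1 in heterozygous cells. In knockout cells Pam, at 99.0 ± 20.2 RPKM (SD, n = 5), stood above Pcsk1n, at 65.9 ± 12.4 RPKM (SD, n = 5). Pcsk2 and Scg5 were neighbours with overlapping ranges, at 391 ± 156 and 317 ± 76.5 RPKM (SD, n = 3) in heterozygous and 277 ± 38.5 and 266 ± 43.0 RPKM (SD, n = 5) in knockout cells. Within each heterozygous library Scg5 was below Pcsk2, at 70.8%, 87.8% and 94.3% of its RPKM. In knockout libraries it lay between 80.8% and 101%. Furin and Pcsk1 also came close in knockout cells, at 3.90 ± 1.08 and 2.79 ± 3.51 RPKM (SD, n = 5).

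**Figure D2:**
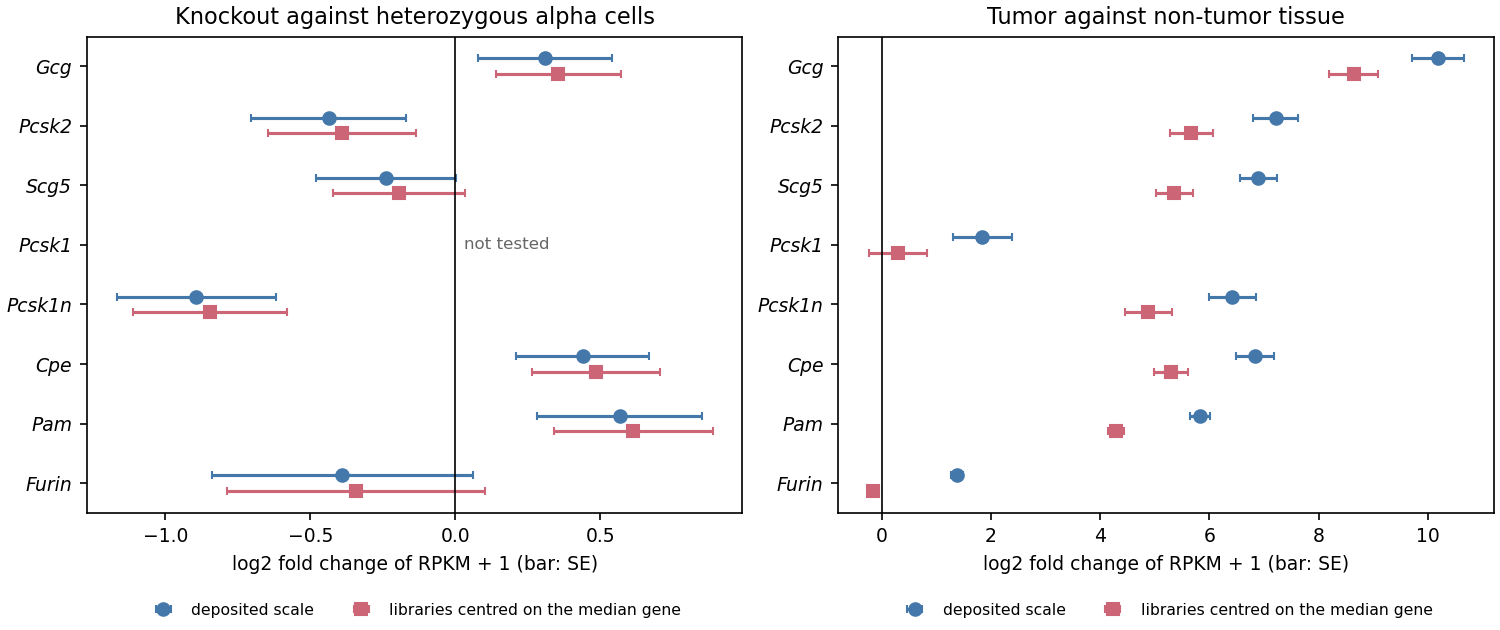
Points give the limma log2 fold change of RPKM + 1 for each gene and bars its SE, on the deposited scale (circles) and with every library centred on its median gene (squares). Alpha cell values lie between -0.89 and 0.57 and none passed the test; in tissue, centring moves every gene down by 1.54, which takes Pcsk1 to 0.30 and Furin to -0.16.

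In tissue the comparison sets tumors of knockout mice against non-tumor pancreas of knockout mice. Gcg and 5 processing genes, Pcsk2, Scg5, Pcsk1n, Cpe and Pam, rose by 5.83 to 10.18 on the log2 scale as deposited and by 4.29 to 8.64 relative to the median gene. Pcsk1 and Furin rose on the deposited scale and did not pass the test relative to the median gene. All 8 rose as deposited, where 90.7% of the 10220 tested genes rose and 3.68% fell. On the centred scale 6 of 8 rose, where 28.6% of the tested genes rose and 36.7% fell. Centring took 1.54 off every log2 fold change, the difference between the groups in the median of a library, and both scales are given for that reason. In bulk tissue, fewer cells of a type and less RNA per cell cannot be told apart. The median sum of acinar markers was 421931 RPKM over the non-tumor libraries but 25643 RPKM over the tumors, and the part of this difference in the results that follow was not tested.

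Gcg reached 149790, 172578, 191594, 170462, 195228, 190450 and 136765 RPKM in tumors 1 to 7, from at least 2150259 reads in each. In the 8 non-tumor libraries its lowest, median and highest values were 34.3, 132 and 455 RPKM, from 399 to 3773 reads. Each tumor exceeded the highest non-tumor library by a wide margin, and the tumors differed little from one another. Gcg rose by 10.18 on the log2 scale (SE 0.48, limma adjusted p = 1.54e-12), and by 8.64 (SE 0.45, adjusted p = 9.82e-11) on the centred scale. In non-tumor libraries Gcg ranked between 41 and 182 among all genes.

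Pcsk2 read 1697, 2180.2, 2354, 1864, 2118, 1628 and 1280.5 RPKM in tumors 1 to 7. Its non-tumor values had a minimum of 1.66, a median of 9.30 and a maximum of 30.5 RPKM. The groups lay apart, as they did for 78.6% of all tested genes, with a log2 fold change of 7.21 (SE 0.41, limma adjusted p = 1.80e-11) as deposited and 5.67 (SE 0.39, adjusted p = 2.22e-09) centred. Scg5 read 740.1, 797, 738, 572, 633, 555 and 253 RPKM in tumors and 0.511 to 8.63 RPKM in non-tumor tissue, where as few as 7 reads stood behind a value. Tumor 7, which had the largest share of acinar markers (21.0%), was the lowest tumor for Gcg, Pcsk2, Scg5, Pcsk1n and Cpe. The Scg5 log2 fold change was 6.90 (SE 0.34, adjusted p = 3.31e-12), and 5.36 (SE 0.33) centred.

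Pcsk1 spread more widely among tumors than any other of the 8 genes. Tumors 1 to 7 read 2.12, 2.10, 9.96, 13.9, 7.00, 73.4 and 32.9 RPKM, from at least 144 reads in the lowest and 4916 in the highest. Non-tumor libraries read 1.48 to 4.88 RPKM, with a median of 1.76, so tumors 1 and 2 lay within the non-tumor range and the other 5 above it. Pcsk1 rose by 1.84 on the log2 scale (SE 0.54, limma adjusted p = 0.00353) as deposited and did not pass centred (0.30, SE 0.53, adjusted p = 0.637). Without tumor 6 the change was 1.40 as deposited and turned to -0.14 centred. The 3 tumors highest in Pcsk1 (6, 7 and 4) were also the 3 highest in summed beta cell markers, at 1568, 762 and 7580 RPKM against 68.6 to 651 RPKM in the other 4. The same 3 were highest in summed ductal markers, at 457, 576 and 1078 RPKM against 120 to 227 RPKM, and in fibroblast and mural markers, at 176, 333 and 279 RPKM against 29.4 to 151 RPKM. Gut endocrine markers, whose sum was nearly all Pyy, were lowest in tumor 6, at 315 RPKM, and highest in tumor 3, at 7670 RPKM. The part of any other cell type in Pcsk1 was not tested. Pcsk1n was far above non-tumor tissue in every tumor, at 1037, 1380.3, 848, 831, 513, 885 and 485 RPKM against 1.62 to 30.5 RPKM. Its log2 fold change was 6.42 (SE 0.44, adjusted p = 1.26e-10) as deposited and 4.88 (SE 0.43) centred.

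**Figure D3:**
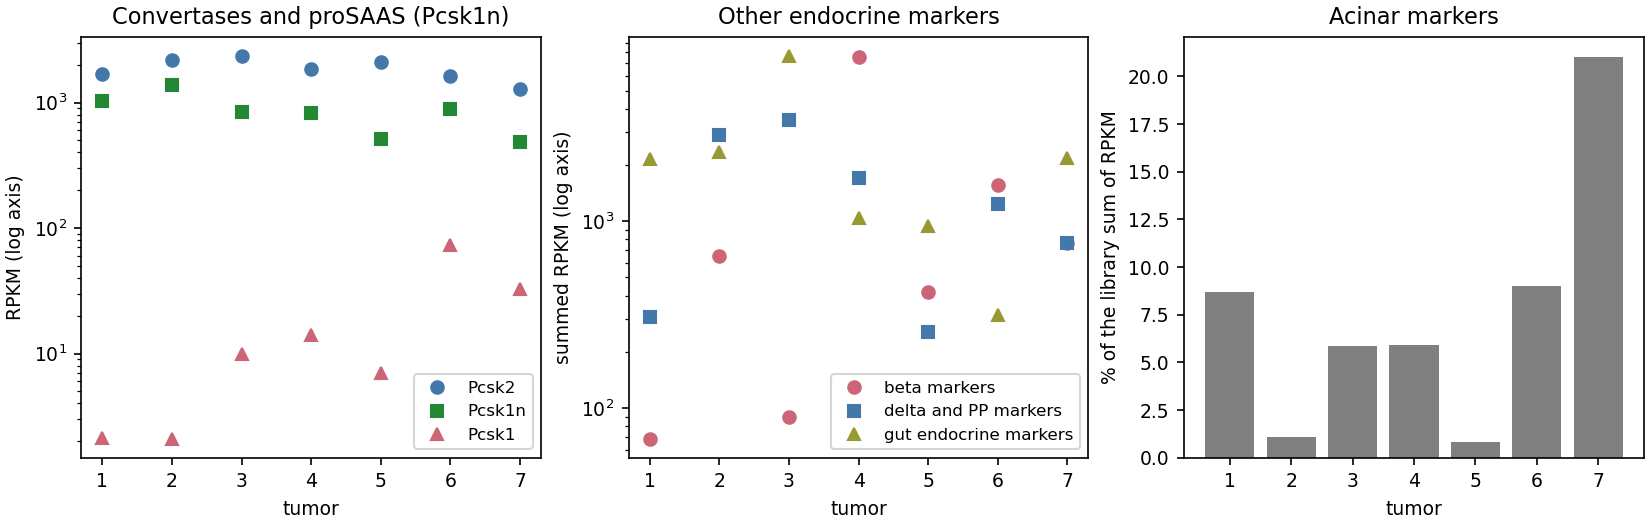
For tumors 1 to 7 the left panel gives RPKM of Pcsk2, Pcsk1n and Pcsk1 and the middle panel summed RPKM of marker lists for other endocrine cells, both on log axes; the right panel gives acinar markers as a share of the library sum. Pcsk1 runs from 2.10 to 73.4 RPKM while Pcsk2 stays between 1280.5 and 2354 RPKM.

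Cpe read 1483, 1589.7, 1819, 1598, 2088, 1647 and 1244 RPKM in tumors and 2.80 to 32.1 RPKM in non-tumor tissue. The groups lay apart, with a log2 fold change of 6.83 (SE 0.34, limma adjusted p = 3.47e-12) and 5.29 (SE 0.32) centred. Pam read 236, 346, 298, 517, 328, 518 and 328 RPKM in tumors, highest in tumors 4 and 6, and 2.97 to 7.35 RPKM in non-tumor tissue. It had a log2 fold change of 5.83 (SE 0.18, limma adjusted p = 2.21e-14) and 4.29 (SE 0.15) centred. Furin, the broadly expressed convertase, read 22.9, 19.4, 19.4, 23, 23.9, 20.6 and 24.1 RPKM in tumors and 6.13 to 9.79 RPKM in non-tumor tissue. Those groups did not overlap and Furin rose by 1.38 (SE 0.11, adjusted p = 9.01e-10) as deposited, but its sign turned on the centred scale (-0.16, SE 0.09, adjusted p = 0.146) and under quantile normalization (-0.24, adjusted p = 0.0301). Its rise as deposited was close to the 1.54 that centring removes.

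Ratios within a library do not depend on its scaling. Relative to Gcg, tumors had less Pcsk2 and less Cpe than non-tumor tissue. Pcsk2 was 0.855 to 1.26% of Gcg RPKM in tumors and 4.83 to 11.2% in non-tumor tissue, a difference in log2 ratio of -2.80. Cpe was 0.865 to 1.07% of Gcg in tumors and 5.96 to 12.9% in non-tumor tissue, a difference of -3.23. Neither pair of ranges overlapped, and each exact permutation p was 0.000155, the smallest that 8 against 7 libraries can give (adjusted 0.000373). Gcg itself rose by 10.18 on the log2 scale, against a median of 1.46 over all tested genes. A lower ratio to Gcg is therefore not particular to Pcsk2 or Cpe. The share of all genes with such a ratio was not computed. Beta cells also make Pcsk2 and Cpe, and summed beta cell markers in non-tumor tissue, at 286 to 10496 RPKM, were above the alpha cell sum of the same library in all 8 cases. The part of these cells in the non-tumor ratios was not tested.

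Scg5 stood at much the same share of Pcsk2 in both tissues, 19.8 to 43.6% in tumors and 25.9 to 43.5% in non-tumor tissue (difference -0.04, exact permutation p = 0.821, adjusted 0.895). The sign of that difference turned without non-tumor library 4, non-tumor library 5 or tumor 7. Pcsk1 was 0.0962 to 4.51% of Pcsk2 in tumors and 10.8 to 89.6% in non-tumor tissue (difference -5.22, exact permutation p = 0.000155, adjusted 0.000373). Pcsk1n exceeded Pcsk1 by a larger factor in tumors, with mean log2 ratios of 6.32 ± 2.22 (SD, n = 7) in tumors and 1.84 ± 0.87 (SD, n = 8) in non-tumor tissue (exact permutation p = 0.000155, adjusted 0.000373). Pam was 15.7 to 32.4% of Cpe in tumors and 19.4 to 106% in non-tumor tissue; the ranges overlapped and the log2 ratio differed by -0.88 (exact permutation p = 0.0166, adjusted 0.0306), with 3 of 7 tumors below every non-tumor library. Furin was 0.826 to 1.88% of Pcsk2 in tumors and 22 to 488% in non-tumor tissue (difference -5.90, exact permutation p = 0.000155, adjusted 0.000373). Pcsk2 itself rose by 7.21 on the log2 scale, so lower ratios to it are not particular to Pcsk1 or Furin. Cpe rose by 6.83 against a median of 1.46 over all tested genes, so a lower ratio to it is not particular to Pam. Pcsk1n rose by 6.42 and Pcsk1 by 1.84, so a higher ratio to Pcsk1 is not particular to Pcsk1n either.

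**Figure D4:**
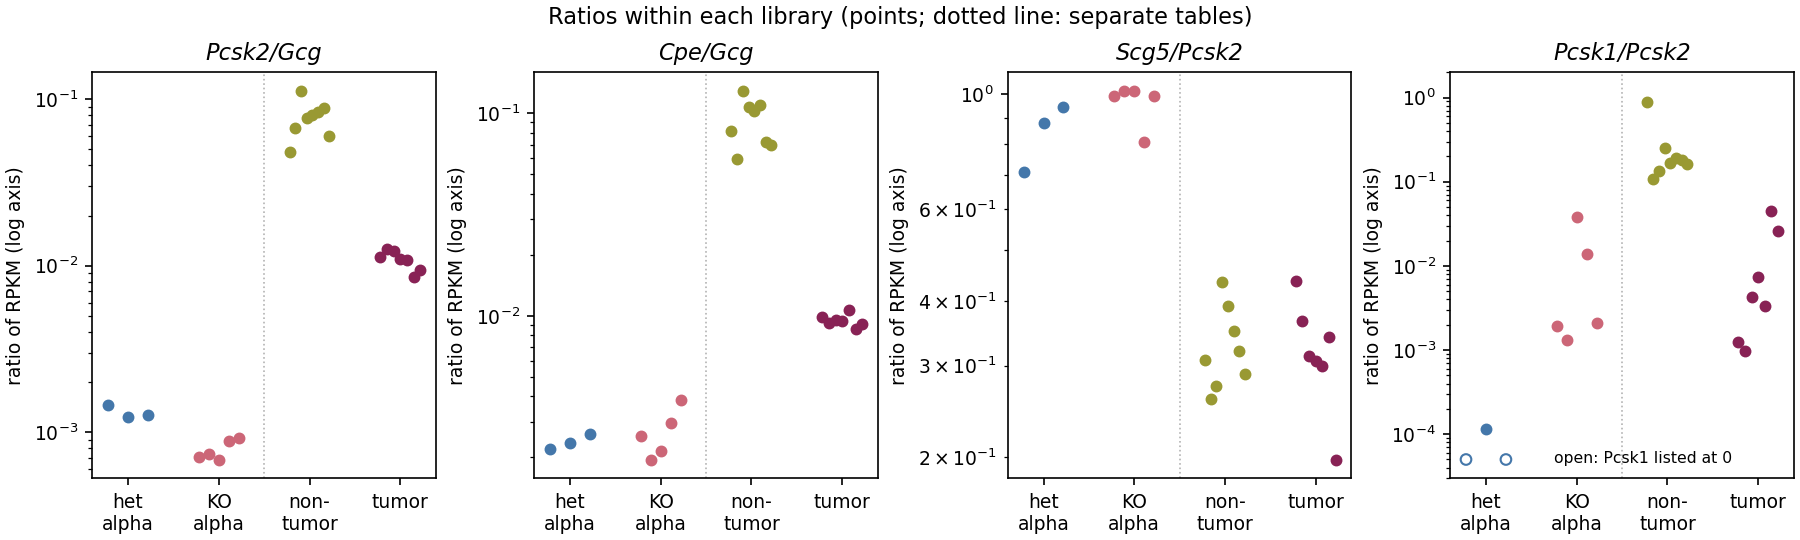
Points give the ratio of RPKM of 2 genes within each library on log axes; the dotted line separates the alpha cell table from the tissue table, and open circles mark libraries with Pcsk1 listed at 0. Pcsk2/Gcg is lower in all 5 knockout than in all 3 heterozygous alpha cell libraries, and Scg5/Pcsk2 overlaps between tumor and non-tumor tissue. How many other genes have such a ratio to Gcg was not computed.

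Side by side, without a test, Pcsk2 was 0.123 to 0.146% of Gcg in heterozygous alpha cells, 0.0684 to 0.0930% in knockout alpha cells and 0.855 to 1.26% in tumors. Gcg ranked first in each of these groups, while Pcsk2 ranked 21 to 31 in heterozygous cells, 35 to 42 in knockout cells and 7 to 33 in tumors. Pcsk1n ranked 88 to 107, 158 to 221 and 20 to 54 in the same groups. Furin was further down, at ranks 3249 to 5444, 4484 to 6978 and 1170 to 1489.

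Genes outside the 8 whose log2(RPKM + 1) most resembled that of Gcg over the 8 alpha cell libraries were Fap (Pearson r = 0.97), Pcdhgb8 and Pcdhga10. For Pcsk2 they were Ppm1b (r = 0.97), Ptcd1 and Numbl, and Scg5 came 49th in that order with r = 0.91. Over the 15 tissue libraries, where the group difference is shared by all of them, the nearest genes outside the 8 were Gprasp1, Slc2a5 and Mageh1 for Gcg, and Abcc8, Syt13 and Krt7 for Pcsk2, each with r of 0.996 to 0.998. With the 8 genes counted in the order, Cpe was the nearest of all to Pcsk2 in tissue (r = 0.999) and the third nearest to Gcg, ahead of Mageh1 (r = 0.997), Furin came 4593rd (r = 0.95) and Pcsk1 8995th (r = 0.65) of the genes tested. These are descriptions over libraries, with group differences left in and any effect of depth not tested.

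A wider list of 31 symbols for peptide processing, modification, breakdown and reception was read in the same fits; Nrdc in it is another symbol of Nrd1. In alpha cells 29 were listed, 16 could be tested and none passed, with a median log2 fold change of 0.06 against 0.00 over all tested genes. Those with the lowest adjusted p were Rnpep, an aminopeptidase that removes basic residues, at 0.340 ± 0.384 RPKM (SD, n = 3) in heterozygous and 6.31 ± 7.26 RPKM (SD, n = 5) in knockout cells (log2 fold change 2.07, limma adjusted p = 0.271), and the lysosomal protease gene Ctsb at 17.8 ± 8.04 and 36.0 ± 7.90 RPKM (1.04, adjusted p = 0.312). The receptor genes Gcgr and Glp2r were listed at 0 or near it, with highest values of 0.111 RPKM for Gcgr and 0 for Glp2r.

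In tissue 30 symbols were listed and 22 tested. On the deposited scale 17 rose and 2 fell, with a median log2 fold change of 1.01 against 1.46 over all tested genes; relative to the median gene 4 rose and 13 fell. The 4 that rose on both scales were Pcsk4, a convertase known from germ cells, Mbtps1, the site 1 protease of the Golgi, Ctsb, and Gipr, the receptor of the gut hormone GIP. Mbtps1 read 4.27 ± 0.99 RPKM (SD, n = 8) in non-tumor tissue and 22 ± 3.51 RPKM (SD, n = 7) in tumors, a log2 fold change of 2.13 (limma adjusted p = 4.05e-11) as deposited and 0.59 centred. Nrd1, a peptidase that cuts before arginine, rose from 10.8 ± 1.26 to 31.3 ± 3.42 RPKM as deposited (1.46, adjusted p = 1.52e-10) and did not pass centred (-0.08, adjusted p = 0.341). The 2 that fell on both scales were Qpct, which makes amino-terminal pyroglutamate, and Glp1r, the receptor of glucagon-like peptide 1. Glp1r read 3.27 ± 0.91 RPKM (SD, n = 8) in non-tumor tissue and 1.70 ± 2.45 RPKM (SD, n = 7) in tumors (log2 fold change -0.97, adjusted p = 0.00822).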

How the data were processed

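Bulk RNA was sequenced in 23 libraries. RNeasy served for extraction and a TruSeq RNA kit for library preparation, per the labels' protocols. CASAVA 1.8, GSNAP and GRCm38 are named in the submitters' processing notes with no role given. The authors deposited 2 tables of values read here as RPKM from the values themselves, since the file headers name no unit; the counting tool, gene models, strand setting and read totals were not stated in any source used here. For Gcg and the processing genes followed here, the tissue values came out as whole reads, within 0.1 of a read. No column lacked a sample.

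After taking log2(RPKM + 1), each gene was tested in R 4.3.3 by limma 3.58.1 with its trend option, separately per table, two-sided, with Benjamini-Hochberg adjustment over all tested genes and a threshold of 0.05. Genes entered with at least 1 RPKM in 3 alpha cell or 7 tissue libraries. The added 1 RPKM shrinks fold changes of low genes. Centring set every library to the same median log2 value. Of 7 ratios in both tables, 12 tests were possible with an exact permutation test; Pcsk1/Pcsk2 and Pcsk1n/Pcsk1 were not tested in alpha cells, where Pcsk1 was listed at 0. Tests were checked on simulated data. Gene positions came from GENCODE vM21. The remaining steps ran in Python 3.11.15 (scipy 1.17.1, numpy 2.4.6, pandas 2.3.3), with figures from matplotlib 3.10.9.

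The genes, lists and tests were chosen with earlier results of these data known. Named beside the 8 genes were the 2 of lowest adjusted p of the wider list per comparison, up to 6 whose calls bear on scaling, and the 3 most alike Gcg and Pcsk2. Alternatives were other pseudocounts and filters, quantile normalization, centring, rescaling to an equal sum outside Gcg and the acinar markers, array weights, a covariate for the number of genes detected in alpha cells, a replicate block and each library left out in turn.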

Additional observations from a re-analysis of the deposited data

How the results depend on the processing

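No member passed the test in alpha cells under any of the settings tried, and 6 to 8 did in tissue, 6 or 7 relative to the median gene when each library was left out in turn. Pcsk1 in tissue no longer passed under median centring (0.30), quantile normalization (0.31) or centring with a replicate block (0.26). Furin turned to -0.16, -0.24 and -0.17 under these settings. For both, the settings remove the difference of 1.54 between group medians. The wider list went from 17 risen and 2 fallen to 4 and 13 under centring.

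Deviations from the group mean had r of 0.00 to 0.09 between same-numbered alpha cell libraries and -0.22 to 0.15 between same-numbered tissue libraries. Differently numbered libraries were not compared, so these values cannot decide whether the numbers pair libraries. For ratios the replicate block took differences within same-numbered pairs, which left out knockout libraries 4 and 5. The alpha cell difference in Pcsk2/Gcg was then -0.89 (exact sign-flip p = 0.25, the smallest that 3 pairs allow), and Cpe/Gcg turned to -0.11. The libraries left out had the highest Cpe/Gcg of the knockout group, at 0.296% and 0.383%. A pseudocount of 1 turned Furin/Pcsk2 in alpha cells to 0.047.

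With each library left out in turn, Pcsk1 relative to the shift ranged from -0.14 to 0.61, and Furin relative to the shift from -0.21 to -0.12, passing once (adjusted p = 0.0419, without non-tumor library 2). In alpha cells the log2 fold change ranged from 0.09 to 0.54 for Gcg, -0.68 to -0.14 for Pcsk2, -0.40 to -0.06 for Scg5, -1.01 to -0.69 for Pcsk1n, 0.29 to 0.61 for Cpe, 0.35 to 0.78 for Pam and -0.64 to -0.08 for Furin, with none passing. There Pcsk2/Gcg ranged from -0.81 to -0.67, Scg5/Pcsk2 from 0.077 to 0.28, Cpe/Gcg from -0.0074 to 0.24 and Furin/Pcsk2 from -0.16 to 0.17. In tissue Scg5/Pcsk2 ranged from -0.12 to 0.075. The cause was not tested. Quantile normalization gave no value for Gcg in alpha cells, since it ranked first in every library. Depth is unknown for alpha cells, and non-tumor values of Scg5 rest on as few as 7 reads.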
